A study of Mus musculus with 17 samples.

Results

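Plasma cells are the antibody-secreting end stage of the B cell lineage, and 10 genes that mark their identity or serve their secretion were followed through the cochlear RNA of mice exposed to noise. The genes were Jchain, Xbp1, Mzb1, Sdc1, Prdm1, Irf4, Tnfrsf17, Derl3, Fkbp11 and Txndc5. They were found by symbol among the 35285 genes of the FPKM table, where each of the 10 had a single entry. FPKM is a count of fragments on a gene set against its exon length and against the fragments of the whole library. All 10 genes passed the filter on low values in each of the 3 comparisons, so none is missing from the counts given for them.

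A plasma cell arises when an activated B cell gives up its B cell program and turns to secretion. The transcription factors IRF4 and BLIMP-1, the product of Prdm1, drive that switch, and XBP1 enlarges the endoplasmic reticulum in which antibody chains are folded and assembled. The J chain joins antibody units into polymers, and MZB1 is a resident of the endoplasmic reticulum that helps antibody to be assembled. Plasma cells live for long periods in bone marrow, and the cochlea lies within bone that holds marrow.

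RNA was sequenced from the cochleae of 17 mice, 3 in the control group, 7 in the NE (noise exposure) group and 7 in the brimonidine group, with 1 library from each mouse. All mice were wild type, and the study's methods give them as male C57BL/6J mice that entered the experiments at an age of 8 weeks. The NE mice were exposed for 2 h to noise of 8 to 16 kHz at 100 dB, and the brimonidine mice had the same exposure together with 3 injections of 1 mg/kg brimonidine, a drug that activates α2-adrenergic receptors. Controls received saline and no noise, and the RNA was taken 2 days after exposure. The study's methods describe no injection of the NE mice, so drug and injection cannot be told apart in the comparison of brimonidine with NE. In that of NE with control, the noise and the lack of saline injections cannot be told apart either. None of the sequenced groups had brimonidine without noise, so the comparison of brimonidine with control joins both agents. The labels call the cells interstitial cells, while the libraries held markers of marrow, bone, nerve and cochlear epithelium together, so the levels are those of a mixed tissue. In such a tissue, fewer cells of a type and less RNA per cell cannot be told apart.

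The fragment total behind the FPKM values of a library, recovered from the values themselves, lay between 14457730 and 18288845. Control 2 stood apart from the other libraries before any comparison was made. Its median correlation with the other libraries across genes was 0.831, against 0.947 or more in each of the other 16, and it had the highest summed level of cerebellar and hindbrain neuron markers, 786 FPKM. That sum was also high in the other controls, at 315 FPKM or more, and lay between 26.3 and 106 FPKM in the 14 exposed libraries. In every comparison with control, the exposure and this difference in neuron markers between the libraries therefore cannot be told apart, and its part in the plasma cell genes was not tested. Control 2 also went against the stated sex of the mice: it held 70.9 FPKM of Xist, the transcript of the inactive X chromosome, where the other 16 libraries held at most 0.173, and 0.595 FPKM of the Y-linked gene Ddx3y, where the others held between 14.0 and 20.8. The fold changes of the plasma cell genes against control are therefore given with and without this library, and so are the medians of most gene lists.

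The 10 genes covered a wide range of levels. Per exon length, Jchain was the highest, with a mean of 516 FPKM over the 17 libraries, followed by Xbp1 at 152, Mzb1 at 76.4 and Txndc5 at 37.8. Jchain was above Xbp1 and Xbp1 above Mzb1 in 17 of 17 libraries, and Mzb1 was above Txndc5 in 16. The next genes in the order were not separated from each other. Sdc1 (16.2 FPKM) was above Derl3 (15.1) in only 8 of 17 libraries, Derl3 was above Fkbp11 (12.4) in 13, and Fkbp11 was above Irf4 (9.11) in 13. Prdm1 had 2.71 FPKM and Tnfrsf17 had 1.49, and that order held in 17 of 17 libraries. Tnfrsf17 rested on 8 to 34 fragments in a library. The 95% Poisson interval, which covers counting error alone, was 3.45 to 15.8 for 8 fragments and 23.5 to 47.5 for 34.

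The comparison of NE with control asks how the libraries of noise-exposed mice differed from those of unexposed ones, with the difference in neuron markers included. Of the 10 plasma cell genes, 1 gene, Irf4, rose under NE at an adjusted p below 0.05, and its change also reached the minimum of 1 on the log2 scale. Among all 15950 genes tested, 2.12% were higher at that adjusted p and 0.27% passed both thresholds. The estimates of all 10 genes were higher in the NE group, as were those of 43.9% of all genes, and 7 of the 10 had an unadjusted p under 0.05, against 10.6% of all genes. None of the 10 was lower at an unadjusted p under 0.05, as 22.3% of all genes were. For 0 of the 10 did every NE library lie above every control, against 3.24% of all genes. The median log2 fold change of the 10 genes was 0.59, and that of all genes was -0.044. By the exact permutation test 3 of the 10 were higher at a p under 0.05, Irf4, Prdm1 and Tnfrsf17, against 5.87% of all genes. Without control 2, 0 of the 10 genes passed the adjusted threshold, 2 had an unadjusted p under 0.05, where 996 of 15431 genes were higher, and the median became 0.41.

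**Figure D1:**
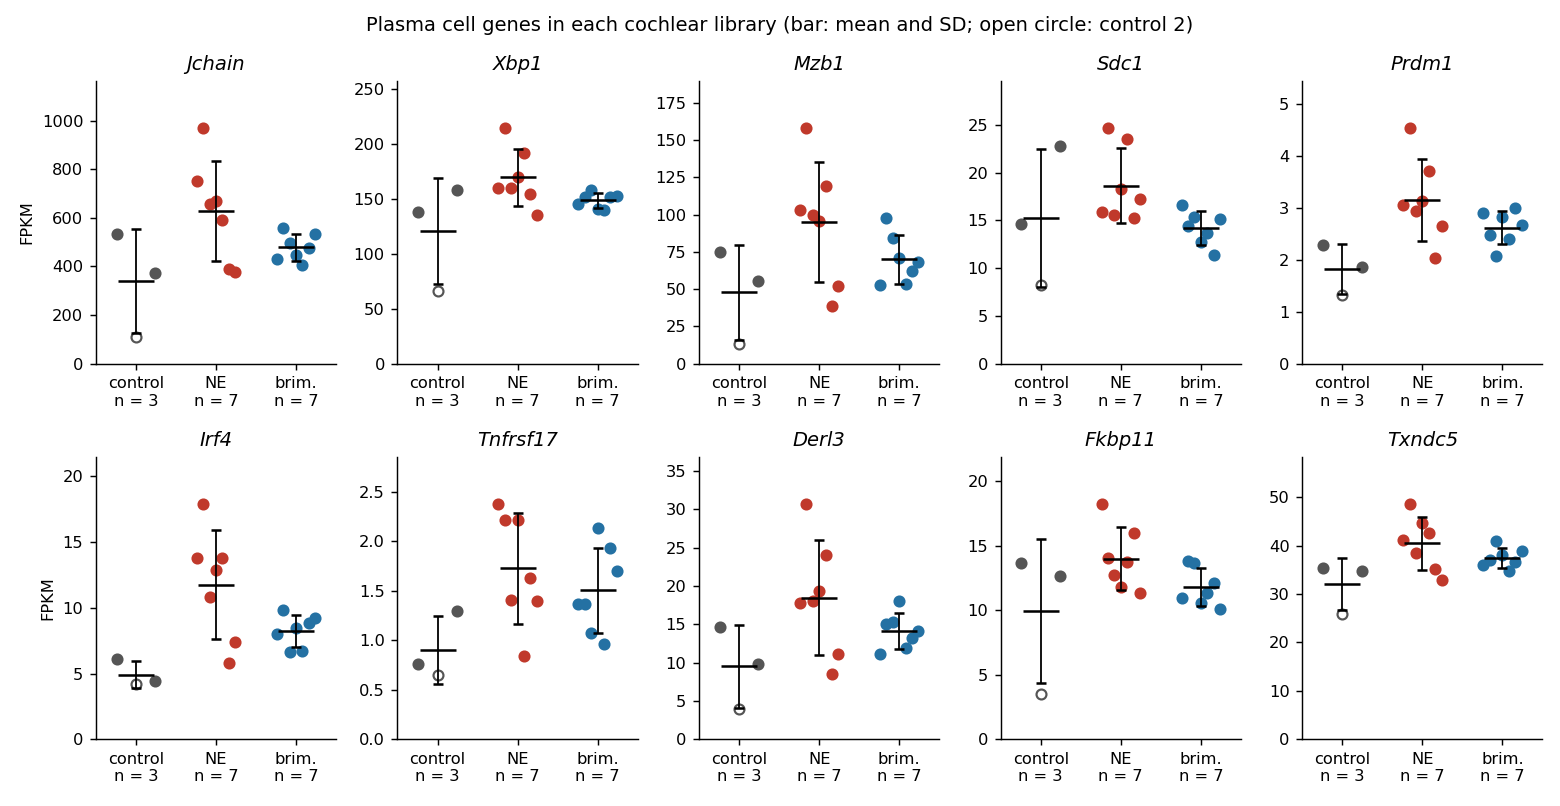
FPKM of the 10 plasma cell genes (vertical axes, each starting at 0) in the 3 control, 7 NE and 7 brimonidine libraries (horizontal axis), with 1 point for each library, the mean and SD as bars, and control 2 as an open circle. Control 2 is the lowest of the 17 libraries for all 10 genes, and the highest library is an NE library for all 10.

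Among the transcription factors, Irf4 (ENSMUSG00000021356, chromosome 13, 30749226 to 30766976, mm10), which commits the B cell to the plasma cell fate, had 6.08, 4.19 and 4.45 FPKM in control libraries 1, 2 and 3. In the NE group it ranged from 5.82 to 17.9 FPKM with a median of 12.9. In 6 of 7 NE libraries Irf4 was above every control, and NE 6, at 5.82, lay within the control range. The control mean was 4.91 ± 1.02 FPKM (SD, n = 3) and the NE mean 11.8 ± 4.14 (SD, n = 7), giving a log2 fold change of 1.05 (SE, the standard error, 0.28, limma adjusted p = 0.0314). The exact two-sided permutation test gave p = 0.0333, where the smallest p this design allows is 0.0167. Without control 2 the log2 fold change was 0.97 (limma adjusted p = 0.13), and the limma adjusted p lay between 0.00161 and 0.195 over the alternatives. The call was also lost without control 3, NE 1, NE 3, NE 4 or NE 5, each time with an adjusted p between 0.0514 and 0.0791 (limma). Which cells of the mixed tissue carried the Irf4 RNA was not tested.

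Prdm1 (ENSMUSG00000038151, chromosome 10, 44437177 to 44528501) encodes BLIMP-1, the repressor that shuts down the B cell program. It had 2.29, 1.33 and 1.87 FPKM in control libraries 1, 2 and 3 and from 2.05 to 4.54 in the NE group, with a median of 3.06. Again 6 of 7 NE libraries were above every control and NE 6 was not. The log2 fold change was 0.55 (SE 0.17, limma adjusted p = 0.0584), and the exact permutation test gave p = 0.0333. Xbp1 (ENSMUSG00000020484, chromosome 11, 5520659 to 5525893), which turns on the secretory machinery, had 138, 66.2 and 158 FPKM in control libraries 1, 2 and 3 and from 135 to 214 in the NE group, with a median of 160. The groups overlapped, with 5 of 7 NE libraries above every control. Its log2 fold change was 0.57 (SE 0.24, limma adjusted p = 0.131), or 0.18 without control 2. Over the alternatives it lay between 0.13 and 0.80. The active XBP1 protein comes from a spliced form of the mRNA, which values for whole genes do not separate from the unspliced form.

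Jchain and Mzb1 are the members closest to antibody itself. Jchain (ENSMUSG00000067149, chromosome 5, 88519809 to 88527891) had 534, 110 and 372 FPKM in control libraries 1, 2 and 3 and from 375 to 969 in the NE group, with a median of 656. In 5 of 7 NE libraries it was above every control, while NE 6 (388 FPKM) and NE 7 (375 FPKM) lay near control 3. The log2 fold change was 1.10 (SE 0.45, limma adjusted p = 0.122) and 0.42 without control 2. Mzb1 (ENSMUSG00000024353, chromosome 18, 35647266 to 35649367) had 74.8, 12.9 and 55.5 FPKM in control libraries 1, 2 and 3 and from 38.4 to 158 in the NE group, with a median of 99.5. Its log2 fold change, 1.17 (SE 0.53, limma adjusted p = 0.156), was the largest of the 10 and also the least precise, and without control 2 it was 0.42. In the GENCODE M21 annotation another gene on the same strand, Spata24, overlaps Mzb1, and how fragments in the overlap were counted is not given in the sources used here.

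Of the surface proteins, Sdc1 (ENSMUSG00000020592, chromosome 12, 8771323 to 8793715) encodes syndecan-1, known as CD138, which plasma cells share with epithelial cells. It had 14.7, 8.28 and 22.7 FPKM in control libraries 1, 2 and 3 and from 15.3 to 24.7 in the NE group, with a median of 17.2. Only 2 of 7 NE libraries were above every control, and the log2 fold change was 0.36 (SE 0.25, limma adjusted p = 0.341), or 0.0042 without control 2. Tnfrsf17 (ENSMUSG00000022496, chromosome 16, 11313812 to 11320074) encodes BCMA, a receptor for survival factors of plasma cells. It had 0.764, 0.647 and 1.30 FPKM in control libraries 1, 2 and 3 and from 0.84 to 2.38 in the NE group, with a median of 1.63. Its log2 fold change was 0.51 (SE 0.20, limma adjusted p = 0.106; exact permutation test, p = 0.0333), and 6 of 7 NE libraries were above every control.

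The last 3 members serve the endoplasmic reticulum. Derl3 (ENSMUSG00000009092, chromosome 10, 75893413 to 75895941) encodes a protein that helps to dispose of misfolded chains, and it had 14.7, 4.00 and 9.86 FPKM in control libraries 1, 2 and 3. In the NE group it ranged from 8.46 to 30.7 FPKM with a median of 18.1, and the log2 fold change was 0.94 (SE 0.40, limma adjusted p = 0.132). Fkbp11 (ENSMUSG00000003355, chromosome 15, 98724373 to 98728198), a prolyl isomerase of the secretory pathway, had 13.6, 3.51 and 12.7 FPKM in control libraries 1, 2 and 3 and from 11.3 to 18.2 in the NE group, with a median of 13.7. Controls 1 and 3 thus lay inside the NE range for Fkbp11, and the log2 fold change of 0.62 (SE 0.31, limma adjusted p = 0.194) became 0.068 without control 2. Txndc5 (ENSMUSG00000038991, chromosome 13, 38500079 to 38528824), a disulfide isomerase, had 35.4, 25.9 and 34.8 FPKM in control libraries 1, 2 and 3 and from 32.8 to 48.6 in the NE group, with a median of 41.2. Its log2 fold change was 0.33 (SE 0.14, limma adjusted p = 0.121). Without control 2 the log2 fold changes of Prdm1, Tnfrsf17, Derl3 and Txndc5 were 0.41, 0.41, 0.48 and 0.19. In GENCODE M21, Txndc5 overlaps genes on the opposite strand, 1 of them the antisense gene Gm31834. The kit was stranded, but whether the counting used strand is not given in the sources used here.

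The promoters of these secretion genes are where XBP1 and ATF6, the transcription factors of the unfolded protein response, are known to act, so the windows of the members were searched for the letters of their response elements. RefSeq windows on GRCm38.p6, from 250 bases before to 50 bases after a start, were matched for 9 of the 10 genes, all but Mzb1. The ER stress response element, searched on both strands like all motifs here as CCAAT and CCACG with 9 bases of any kind between them, was found in 0.119% of 32851 windows and, of the members, in Derl3. The core of the unfolded protein response element, TGACGTG, was found in 2.01% of windows and, of the members, in Fkbp11 and Txndc5. The shorter core ACGTG, which TGACGTG contains, was found in 19.6% of windows and in those of Derl3, Fkbp11, Jchain and Txndc5. The windows of Derl3 and Txndc5 are shown because they hold the longest and the middle of these elements. Each is a stretch of 120 bases read 5′ to 3′ on the strand of the gene, with the element in capitals. In Derl3 the element lies on the opposite strand, from base -156 to base -138 relative to the start, and its stretch is chr10:75893202-75893321 on the plus strand. In Txndc5 it lies from base -138 to base -132 before an internal start, in an intron of the longer transcript, and its stretch is chr13:38527973-38528092 on the minus strand.
Derl3: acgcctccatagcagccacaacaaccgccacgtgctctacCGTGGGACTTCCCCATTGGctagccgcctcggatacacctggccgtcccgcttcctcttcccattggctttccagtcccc
Txndc5: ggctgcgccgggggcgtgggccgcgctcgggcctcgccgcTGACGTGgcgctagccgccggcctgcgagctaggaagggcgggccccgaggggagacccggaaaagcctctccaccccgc
A second form of the ER stress response element, ATTGG and CCACG with 1 base between them, was found in 0.0365% of windows and in no member. Of the motifs of interferon regulatory factors, GAAA repeated after 2 bases of any kind was found in 3.44% of windows and in those of Tnfrsf17 and Txndc5, and GGAA followed after 2 bases by GAAA in 2.72% of windows and in no member. A match gives the letters in the window only, and the FPKM values of the genes do not depend on it.

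**Figure D2:**
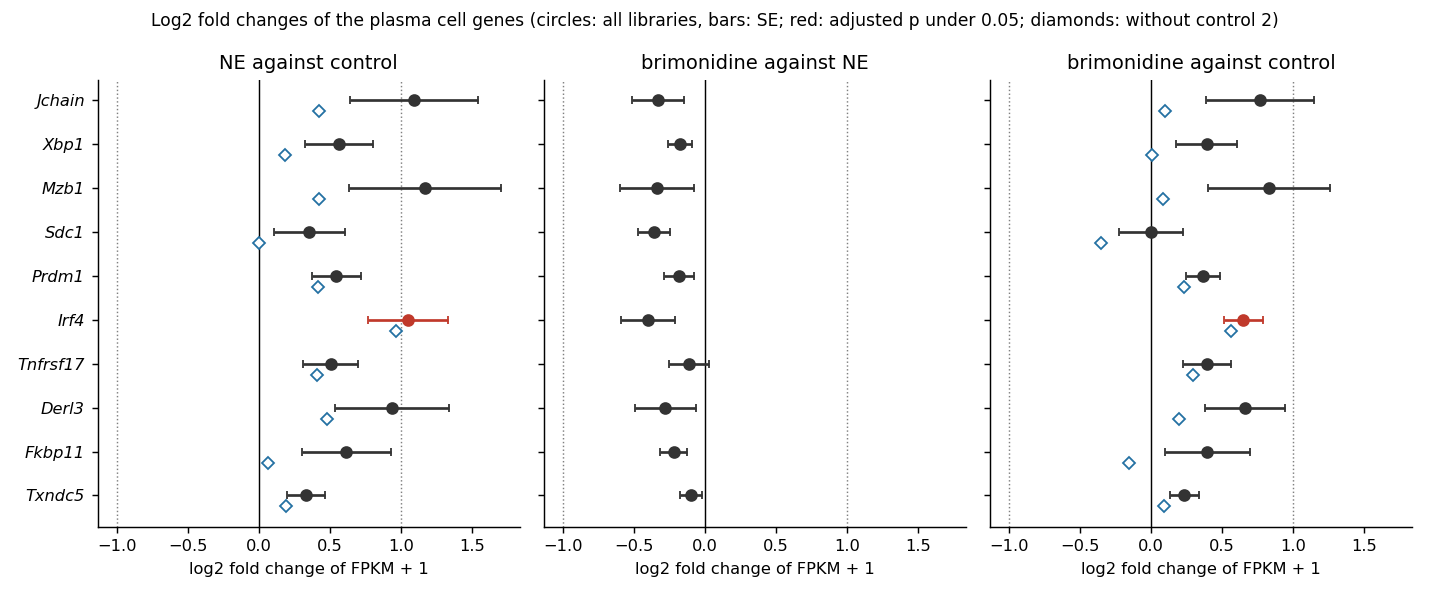
Log2 fold changes of FPKM + 1 (horizontal axes) of the 10 plasma cell genes (rows) in the 3 comparisons, with all libraries (circles, bars show the standard error, red where the adjusted p is under 0.05) and without control 2 (diamonds, for the comparisons with control). Dotted lines mark the minimum log2 fold change of 1. Irf4 is the only red circle in both comparisons with control, and in the comparison of brimonidine with NE all 10 circles lie below 0 with no red one.

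The comparison of brimonidine with NE asks how noise-exposed mice with the drug differed from those without it, any difference in injections included. None of the 10 genes passed the adjusted threshold (limma), which 0% of the 15707 genes tested passed in that direction and 0.00637% in the other. All 10 estimates were lower in the brimonidine group, as were 42.3% of all estimates, and 3 genes had an unadjusted p under 0.05, against 2.46% of all genes. None was higher at an unadjusted p under 0.05, as 3.3% of all genes were, and for none did the groups separate, as for 0.0382% of all genes. The 3 were Sdc1, Fkbp11 and Irf4. By the exact permutation test 1 of the 10, Sdc1, was lower at a p under 0.05, against 2.1% of all genes. The median log2 fold change of the 10 genes was -0.25, from -0.40 for Irf4 to -0.099 for Txndc5, and the median of all genes was 0.015.

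Sdc1 had the smallest p of the 10 in this comparison. Its level in the brimonidine group ranged from 11.3 to 16.6 FPKM with a median of 14.4, and 5 of 7 brimonidine libraries were below every NE library. The mean was 14.2 ± 1.77 FPKM (SD, n = 7) against 18.7 ± 3.89 in the NE group (SD, n = 7), a log2 fold change of -0.36 (SE 0.11, limma adjusted p = 0.633; exact two-sided permutation test, p = 0.00758, smallest possible p 0.000583). Syndecan-1 is also made by epithelium. Of 10 tested markers of cochlear epithelium and stria, 6 had higher and 4 had lower estimates in this comparison. Of the 4, 3 had an unadjusted p under 0.05, and 0 of the list passed the adjusted threshold (limma). The median log2 fold change of these markers was 0.047, and their part in the level of Sdc1 was not tested.

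Irf4 in the brimonidine group ranged from 6.63 to 9.83 FPKM with a median of 8.50. All 7 of these libraries were below the NE mean, but NE 6 and NE 7 were within or below their range. The log2 fold change against NE was -0.40 (SE 0.19, limma adjusted p = 0.865; exact permutation test, p = 0.0769). Jchain ranged from 408 to 560 FPKM with a median of 475, and its log2 fold change against NE was -0.33 (SE 0.18, limma adjusted p = 0.875). For Jchain too all 7 brimonidine libraries were below the NE mean, with NE 6 and NE 7 below every one of them. Fkbp11 ranged from 10.1 to 13.8 FPKM with a median of 11.3, below every NE library in 4 of 7, and its log2 fold change was -0.22 (SE 0.098, limma adjusted p = 0.857).

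For the other members the brimonidine group lay inside or near the NE range. Xbp1 ranged from 140 to 158 FPKM (log2 fold change -0.18), Mzb1 from 52.5 to 97.6 (-0.34), Prdm1 from 2.08 to 2.99 (-0.18), Tnfrsf17 from 0.966 to 2.13 (-0.11), Derl3 from 11.2 to 18.1 (-0.28) and Txndc5 from 34.7 to 41.0 (-0.099). The adjusted p of these 6 genes lay between 0.865 and 0.959 (limma). With single libraries dropped the log2 fold change of Mzb1 lay between -0.53 and -0.20, and that of Derl3 between -0.44 and -0.15. For Prdm1 the limits were -0.25 and -0.11, for Tnfrsf17 -0.20 and -0.056, and for Jchain -0.44 and -0.21. Quantile normalization gave -0.087 for Xbp1.

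The exposed groups also had different spreads among mice. The SD of log2(FPKM + 1) was larger in the NE group than in the brimonidine group for all 10 genes, as it was for 58.3% of the 15007 genes whose mean reached 1 FPKM. The median SD of the 10 genes was 0.293 under NE and 0.170 under brimonidine, against 0.146 and 0.130 over all genes. For Jchain the SD was 0.495 and 0.167, and its highest level was 2.58 times its lowest under NE but 1.37 times in the brimonidine group. For Mzb1 the same ratios were 4.11 and 1.86. This was not tested and is given as a description.

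**Figure D3:**
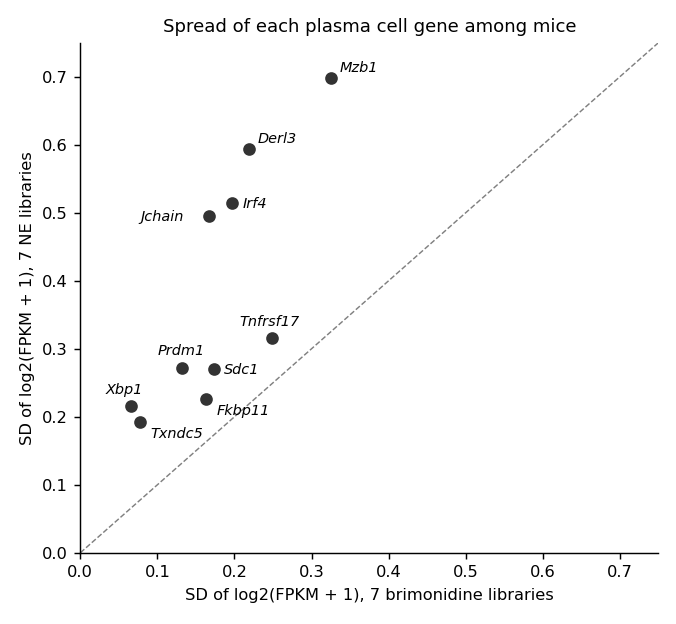
SD of log2(FPKM + 1) of each plasma cell gene over the 7 NE libraries (vertical axis) against that over the 7 brimonidine libraries (horizontal axis), with the line of equal spread dashed. All 10 genes lie above the line, and Mzb1, with 0.699 and 0.325, has the largest SD in both groups.

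In the NE group a few mice held the same place for most of the genes. NE 2 was the highest NE library for 8 of the 10 genes and the highest of all 17 libraries for the same number. NE 7 was among the 2 lowest NE libraries for 9 genes and NE 6 for 8. Counted against the controls, NE 2 was above every control for 10 of 10 genes, NE 1 and NE 5 for 9, and NE 3 and NE 4 for 8, while NE 7 was above every control for 3 and NE 6 for 2. In the brimonidine group the number lay between 2 (brimonidine 5) and 8 (brimonidine 2). The same counts over all genes were not made, so whether these libraries stood out for the 10 genes was not tested. The 10 genes come from the same library each time and are not separate observations. Brimonidine 5 was among the 2 lowest libraries of its group for 8 genes.

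The comparison of brimonidine with control shows how far the drug-treated mice lay from unexposed ones. Of the 10 genes, 1 rose, again Irf4, at an adjusted p that 3.47% of the 15947 genes tested passed in that direction. It was also the only one of the 10 for which every brimonidine library was above every control, as 5.07% of all genes were. The log2 fold change of Irf4 was 0.65 (SE 0.14, limma adjusted p = 0.00947; exact permutation test, p = 0.0167, the smallest possible), and without control 2 it was 0.56 (limma adjusted p = 0.0415). Its limma adjusted p lay between 0.000187 and 0.242 over the alternatives, and no single library left out ended the call. The change did not reach the minimum of 1 on the log2 scale, which 0 of the 10 genes passed together with the adjusted threshold, against 0.169% of all genes.

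Estimates were higher in the brimonidine group for 9 of the 10 genes, as for 45.8% of all genes, and 5 had an unadjusted p under 0.05, against 13.6% of all genes. At the same p 0 of the 10 were lower, against 22% of all genes. The 5 were Irf4, Prdm1, Tnfrsf17, Derl3 and Txndc5. Without control 2 only 1 of the 10, Irf4, had such a p, where 1583 of 15535 genes were higher. By the exact permutation test with all libraries 2 of the 10, Irf4 and Prdm1, were higher at a p under 0.05, against 8.39% of all genes. Prdm1 had 2.62 ± 0.324 FPKM in the brimonidine group (SD, n = 7), a log2 fold change of 0.36 against control (SE 0.12, limma adjusted p = 0.0639; exact permutation test, p = 0.0333), and 6 of 7 libraries above every control. For Jchain the log2 fold change was 0.77 with all libraries and 0.094 without control 2, and for Mzb1 it was 0.83 and 0.083. For Sdc1 it was -0.0019 and -0.35, and for Fkbp11 0.40 and -0.15. With array weights, which count libraries that vary more for less, Sdc1 was lower under brimonidine than in control, at -0.59 on the log2 scale (limma adjusted p = 0.00401). Under these weights 3935 of 15947 genes were lower at an adjusted p under 0.05. Without control 2 the log2 fold change of Prdm1 was 0.23 (limma adjusted p = 0.227), and those of Derl3, Txndc5, Tnfrsf17 and Xbp1 were 0.20, 0.091, 0.30 and 0.0083, against 0.66, 0.23, 0.39 and 0.39 with all libraries. The median over the 10 genes was 0.39 with control 2 and 0.093 without it, when 8 estimates were higher and 2 lower. Both comparisons with control share the same 3 control libraries.

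Some markers of other blood cells were also low in control 2. Ptprc, which encodes CD45 and is carried by nearly all leukocytes, had 30.6, 12.8 and 32.6 FPKM in control libraries 1, 2 and 3, from 30.1 to 39.2 under NE and from 32.7 to 41.2 under brimonidine. The log2 fold change under NE was 0.53 (limma adjusted p = 0.144), or 0.12 without control 2. All 9 neutrophil markers had higher estimates in the NE group, with log2 fold changes from 0.53 to 0.86 and a median of 0.76 that became 0.058 without control 2, and none passed the adjusted threshold, with 1 at an unadjusted p under 0.05. The summed level of the neutrophil markers was 43395, 9715 and 45827 FPKM in control libraries 1, 2 and 3, between 39461 and 64692 under NE and between 40137 and 57730 under brimonidine, so that only control 2 lay outside the ranges of the exposed groups. Their part in the plasma cell genes was not tested.

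Set against Ptprc, 8 of the 10 genes had a higher mean log2 ratio of their FPKM in the NE group than in control and 2, Sdc1 and Txndc5, a lower one. The ratio of Jchain to Ptprc averaged 12.5 ± 4.51 over controls (SD, n = 3), 18.5 ± 7.08 over NE libraries (SD, n = 7) and 13.5 ± 1.54 over brimonidine libraries (SD, n = 7). In control 2 this ratio was 8.59, against 17.4 in control 1 and 11.4 in control 3. For Irf4 the ratio in control 2, 0.329, was the highest of the 3 controls, against 0.198 and 0.137. The ratios were tested as log2 of (FPKM + 1) over (Ptprc FPKM + 1), a scale that understates differences of low genes and on which Tnfrsf17 also had a lower mean in the NE group. On it the difference between NE and control was 0.56 for Jchain (exact two-sided permutation test, p = 0.167), 0.52 for Irf4 (p = 0.25 in the exact test), 0.013 for Prdm1 (p = 0.933 in the exact test), which was 0.22 with no pseudocount (p = 0.5 in the exact test, chosen after seeing the data), and -0.18 for Sdc1 (p = 0.55 in the exact test). Without control 2 these differences were 0.30 for Jchain, 0.85 for Irf4, 0.30 for Prdm1 and -0.11 for Sdc1, and that of Tnfrsf17 turned from -0.029 to 0.29, that of Txndc5 from -0.20 to 0.072 and that of Fkbp11 from 0.083 to -0.051. Of 30 such tests, over 10 genes and 3 comparisons, none passed after Benjamini-Hochberg adjustment, and the smallest adjusted value was 0.361 (exact permutation tests). At an unadjusted p under 0.05, 0 of the 10 genes passed in the comparison of NE with control, where 0.15% of all genes were higher and 25.9% lower relative to Ptprc by the same exact test. Sdc1 passed in that of brimonidine with NE, with a lower ratio, as 1.41% of all genes did. Xbp1 and Sdc1 passed in that of brimonidine with control, with differences of -0.19 and -0.58, and 36.1% of all genes were lower there, a larger share than the 2 of 10. Without control 2 these 2 differences were -0.16 and -0.52, and 7 libraries against 2 cannot reach such a p.

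Genes were ranked by how closely they followed Jchain from library to library. Over the 17 libraries the correlation (Pearson) of log2(FPKM + 1) with Jchain was 0.963 for Mzb1, rank 2 of 15006 genes, 0.925 for Derl3, 0.921 for Xbp1 and for Txndc5, 0.834 for Fkbp11, 0.821 for Prdm1, 0.807 for Irf4, 0.656 for Sdc1 and 0.574 for Tnfrsf17. The 10 other genes most like Jchain were Igkc (0.972), Iglv1, Ighg2c, Ighg2b, Slpi, 1700017B05Rik, Igkv10-94, Lax1, Igkv8-30 and Gm15987 (0.924). The points share the low value of control 2. Over the 14 exposed libraries Irf4 moved up to 0.920, rank 6, and Fkbp11 moved down to 0.415. The 10 other genes then were Neil1 (0.939), Pou2af1, Iglv1, Igkc, Slpi, Oosp1, Cd79a, Ighg2b, Cd79b and Prdx4 (0.894), and 4 of them were also in the first list. The count of immunoglobulin genes among the 10 was 6 over 17 libraries, 3 over the 14 exposed libraries, 1 without control 2, 1 within the NE group and 0 within the brimonidine group. Pou2af1 is a coactivator of antibody gene transcription, and Cd79a and Cd79b are the signaling chains of the B cell receptor. Within the 7 NE libraries the median correlation of the 9 members with Jchain was 0.824, and within the 7 brimonidine libraries it was 0.424. Jchain itself also varied less there, with an SD of 0.167 against 0.495 under NE. The difference between these medians was not tested.

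**Figure D4:**
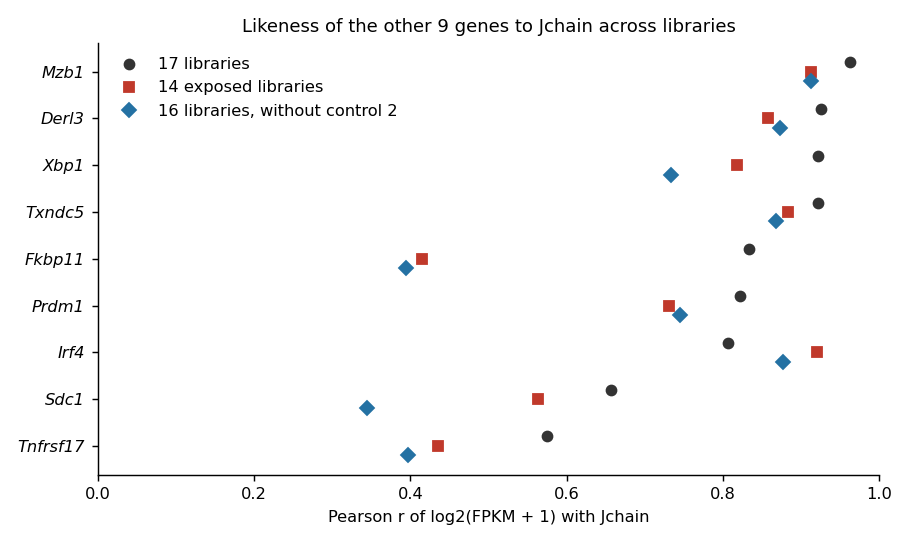
Pearson correlation of log2(FPKM + 1) with Jchain (horizontal axis) for the other 9 plasma cell genes (rows) over 17 libraries (circles), the 14 exposed libraries (squares) and the 16 libraries without control 2 (diamonds). Mzb1, Derl3, Txndc5 and Irf4 lie above 0.8 in each set, and Fkbp11 drops from 0.834 over 17 libraries to 0.415 over the 14 exposed ones.

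The products of plasma cells are antibodies, and 12 constant region genes of the antibody chains were measured. In the NE group 11 of the 12 had estimates above control, with a median log2 fold change of 0.89, and 0 passed the adjusted threshold (limma), with 3 at an unadjusted p under 0.05. Igkc, the constant region of the kappa light chain, had 7506, 1019 and 6971 FPKM in control libraries 1, 2 and 3 and from 5310 to 17269 under NE, a log2 fold change of 1.37 (limma adjusted p = 0.191) and 0.43 without control 2. Ighg2c, of an IgG class, had 2459, 107 and 2401 FPKM in control libraries 1, 2 and 3 and from 1955 to 6420 under NE, a log2 fold change of 2.07 (limma adjusted p = 0.128) and 0.57 without control 2. Igha and Ighg2b had log2 fold changes of 0.88 and 1.77, which were 0.40 and 0.54 without control 2. Control 2, which was lowest for Igkc and Ighg2c, was the highest control for Ighm, the IgM chain that B cells carry before they switch class, at 138 FPKM against 82.1 and 51.1. In the comparison of brimonidine with NE 11 of the 12 genes had lower estimates, with a median log2 fold change of -0.33, 0 passed the adjusted threshold, and 1 was higher and 2 were lower at an unadjusted p under 0.05. Against control, 11 were tested and 11 were higher in the brimonidine group with a median of 0.70, which became -0.017 without control 2, and 0 passed the adjusted threshold, with 1 at an unadjusted p under 0.05. The constant regions are similar in sequence, and the counting could have divided fragments between them.

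Of 19 other plasma cell genes, 18 were tested. In the NE group 17 of these had estimates above control, with a median log2 fold change of 0.34, and 1 rose and 1 fell at an adjusted p under 0.05 (limma). Without control 2 the median was 0.20, 16 of 18 estimates were higher, and 1 gene was higher at an unadjusted p under 0.05, where 8 were with all libraries. The one that rose was Eaf2, a partner of elongation factors, from a mean of 0.708 to 1.44 FPKM, or by 0.51 on the log2 scale (limma adjusted p = 0.0241), and the one that fell was Pim2, a survival kinase, with a log2 fold change of -0.59 (limma adjusted p = 0.0257). At that adjusted p, 12% of all genes were lower. Both were named after their values were seen, and without control 2 neither passed in that comparison (limma adjusted p = 0.1002 and 0.0856). The log2 fold change of Pim2 was then -0.37, and the control mean of Eaf2 was then 0.791 FPKM. Against control, the brimonidine group had 16 higher estimates with a median of 0.31, or 0.14 without control 2. Slamf7, a surface receptor of plasma cells, rose by 0.39 on the log2 scale (limma adjusted p = 0.0475, and 0.075 without control 2), and Pim2 fell, with a log2 fold change of -0.62 (limma adjusted p = 0.0152), where 12.3% of all genes were lower. Without control 2 Pim2 still passed there, with a log2 fold change of -0.40 (limma adjusted p = 0.0252). Slamf7 too was named after its values were seen. The most abundant of the list, Cxcr4, the homing receptor for marrow, had 97.6, 58.8 and 79.9 FPKM in control libraries 1, 2 and 3 and from 80.2 to 98.3 under NE, a log2 fold change of 0.25 (limma adjusted p = 0.23). Without control 2 the control mean of Cxcr4 was 88.7 FPKM, against an NE mean of 92.1. Edem1, Sec11c and Spcs3, which serve disposal and processing in the endoplasmic reticulum, had log2 fold changes of 0.53, 0.44 and 0.26, or 0.17, 0.19 and 0.029 without control 2, and did not pass. In the comparison of brimonidine with NE 15 of 18 estimates were lower, with a median of -0.10, and 0 passed.

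The endoplasmic reticulum genes that every secretory cell uses lay closer to no difference. Of 25 secretory genes of the XBP1 and ATF6 arms, Atf6 itself included, 23 had higher estimates under NE than control. Their median log2 fold change was 0.16, and 0.011 without control 2, and 0 passed the adjusted threshold, with 1 at an unadjusted p under 0.05. Pdia3, Hspa5, Hsp90b1 and Pdia6, the chaperones and isomerases with the highest levels, had log2 fold changes of 0.24, 0.11, 0.23 and 0.26, or 0.070, -0.053, 0.10 and 0.053 without control 2. In the comparison of brimonidine with NE their list had a median of -0.040, and in that of brimonidine with control 0.10, which turned to -0.023 without control 2, and 0 genes passed in either, with 1 and 4 of them at an unadjusted p under 0.05. Of 8 genes of PERK and ATF4, the stress arm of the same response, 5 had higher and 3 lower estimates under NE. These 8 include Eif2ak3 and Atf4 themselves, and their median was 0.032 (0.020 without control 2). With all libraries 0 passed in any of the 3 comparisons, with 2, 0 and 3 at an unadjusted p under 0.05. Without control 2, Eif2ak3, which encodes PERK, rose and Atf4 fell in the brimonidine group against control, by 0.22 and 0.32 on the log2 scale (limma adjusted p = 0.0321 and 0.0303). Atf4, the most abundant of them, had a log2 fold change of -0.13 in the comparison of NE with control.

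**Figure D5:**
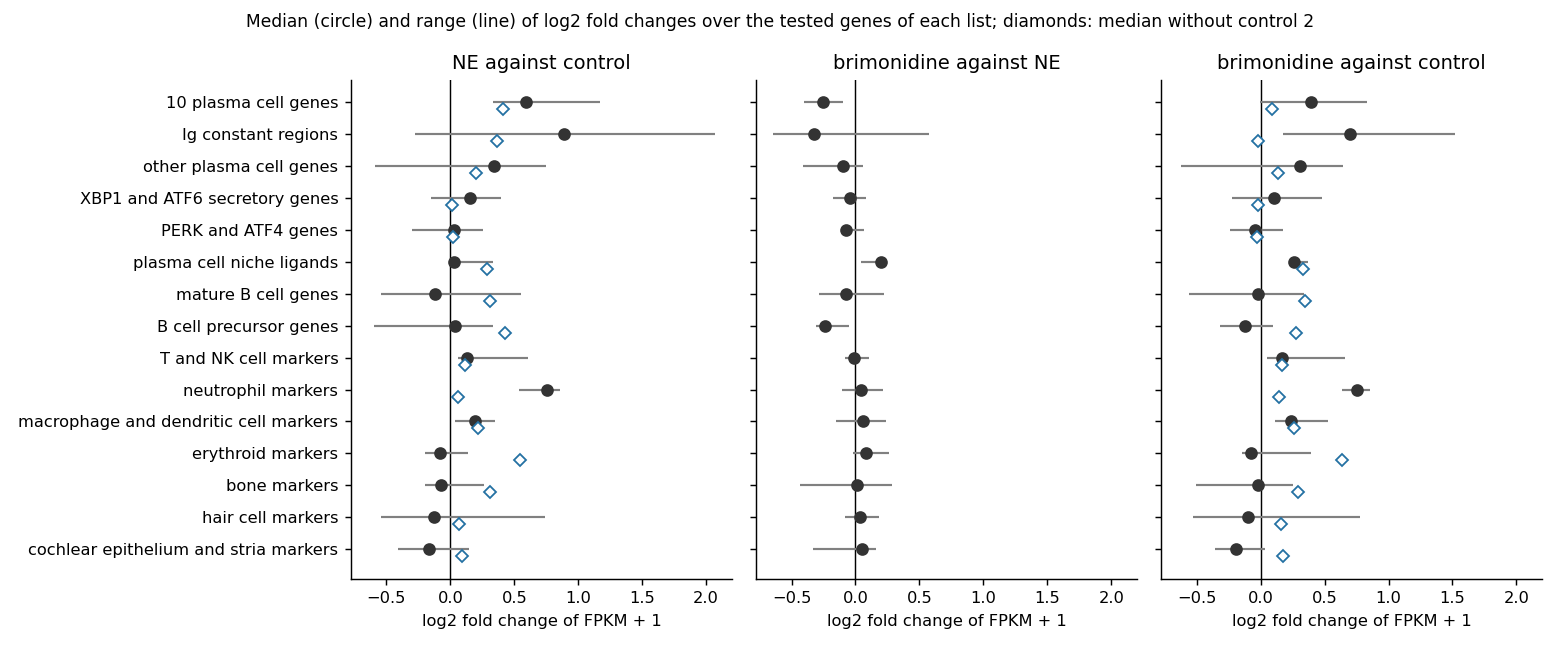
Median (circles) and range (lines) of the log2 fold changes of FPKM + 1 (horizontal axes) over the tested genes of each gene list (rows) in the 3 comparisons, with the median without control 2 as diamonds. The median of the antibody constant regions is 0.89 in the comparison of NE with control and 0.37 without control 2, and that of the neutrophil markers is 0.76 and 0.058.

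Genes of B cells before the plasma cell stage gave mixed estimates. Of 14 mature B cell genes 12 were tested in the comparison of NE with control, 4 with higher and 8 with lower estimates and a median log2 fold change of -0.12, and 0 passed the adjusted threshold, with 2 at an unadjusted p under 0.05. Without control 2 the median turned to 0.31, with 10 of 12 higher. Cd74, which chaperones MHC class II, had 254, 223 and 154 FPKM in control libraries 1, 2 and 3 and from 201 to 425 in the NE group (log2 fold change 0.55, adjusted p = 0.148, limma). Cd79a had 22.7, 38.5 and 11.3 FPKM in control libraries 1, 2 and 3 and from 14.6 to 36.2 in the NE group (log2 fold change 0.27), with control 2 the highest of the 17 libraries. Without control 2 the control mean of Cd79a was 17.0 FPKM in place of 24.2, against an NE mean of 27.3. Cd79b and Bcl6 had log2 fold changes of 0.34 and -0.13. For Cd79b the control mean was 10.7 FPKM without control 2 in place of 14.8, against an NE mean of 17.7. Of 7 genes of B cell precursors 5 were tested, with a median of 0.033 that became 0.42 over 4 genes without control 2, and 0 passed in any comparison, with 0, 2 and 0 at an unadjusted p under 0.05. The most abundant of them, Il7r and Dntt, had log2 fold changes of 0.14 and 0.33. Without control 2 their control means were 2.70 and 2.12 FPKM in place of 3.74 and 2.66, against NE means of 4.11 and 3.33. Of 4 niche ligands for plasma cells 3 were tested and 0 passed in any comparison, with 1, 1 and 2 at an unadjusted p under 0.05, and Cxcl12, the ligand of CXCR4, had log2 fold changes of 0.030 for NE against control and 0.23 for brimonidine against NE. The median of these ligands for NE against control was 0.030, and 0.29 without control 2.

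Markers of other cell types were read in the same libraries. All 9 cerebellar and hindbrain neuron markers, Cbln1, Cbln3, Gabra6, Neurod1, Calb1, Aldoc, Zic1, Zic2 and Pcp2, fell in both exposed groups against control, with log2 fold changes between -5.21 and -1.30 in the NE group and a median there of -3.88, or -3.43 over 7 tested without control 2. Among markers of macrophages and dendritic cells, 1 of 8 rose in the NE group, Csf1r, with a log2 fold change of 0.25 (limma adjusted p = 0.0497), and 2 rose in the brimonidine group against control, Csf1r and Adgre1. The median of these markers against control was 0.19 under NE and 0.24 under brimonidine, and 0.21 and 0.26 without control 2. Of the hair cell markers Gfi1, which also serves blood progenitors, rose by 0.74 on the log2 scale (limma adjusted p = 0.0375). Gfi1 also rose in the brimonidine group against control, with a log2 fold change of 0.78 (limma adjusted p = 0.023). Without control 2, Csf1r passed in neither comparison and Adgre1 still passed. Gfi1 then passed for brimonidine against control (log2 fold change 0.44, limma adjusted p = 0.0164) but not for NE (0.40, limma adjusted p = 0.101). Siglech of the macrophage and dendritic cell list, Slc4a1 of the erythroid list and Otos of the cochlear epithelium list also rose then for brimonidine against control. In that fit 314 of 15535 genes were called higher. All 6 of these genes were named after their values were seen. In the comparison of NE with control the median log2 fold change was 0.13 for 6 tested markers of T and NK cells, -0.081 for 7 of erythroid cells, -0.075 for 8 of bone, -0.13 for 6 of hair cells and -0.16 for 10 of cochlear epithelium and stria. Without control 2 the same medians were 0.11, 0.54, 0.31, 0.071 and 0.090, with higher estimates for 7 of 7 erythroid and 8 of 8 bone markers. With all libraries, apart from Gfi1 none of these passed the adjusted threshold. Between brimonidine and NE, 0 genes of these lists passed it.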

How the data were processed

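Cochlear RNA of 17 mice was sequenced from stranded mRNA libraries. The authors deposited FPKM values for 35285 genes, on mm10, and the submitters' processing notes name Trimmomatic, HISAT2, Cufflinks and HTSeq without versions. No other scaling between libraries is given in the sources used here. Positions of 93.9% of genes found in GENCODE M21 equalled the annotation. Low FPKM values times exon length gave whole fragments, to within 0.05, for 93.0% to 93.8% of values in a library, which gave the depth. For Mzb1 and Fkbp11 the exon length was solved from the values.

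limma 3.58.1 (lmFit, eBayes with a trend, R 4.3.3) was run on log2(FPKM + 1) for genes that reached 1 FPKM in 3 or more of a comparison's libraries. Each model used the 2 groups in question, and p-values were adjusted by Benjamini-Hochberg over every gene tested. A pseudocount of 1 makes the log2 fold changes of low genes smaller than those of their FPKM. Calls used an adjusted p under 0.05, with or without the minimum log2 fold change of 1 that the study set. The study's methods name DESeq2, a tool for counts, which FPKM values are not. Exact two-sided permutation tests were run in scipy 1.17.1 (Python 3.11.15, numpy 2.4.6, pandas 2.3.3), and figures were drawn with matplotlib 3.10.9. The fit was tested on simulated data.

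The genes followed, the lists and the tests were chosen with earlier results of these data known. Named genes were all 10 plasma cell genes, Ptprc, the genes of each list that passed both thresholds, otherwise up to 4 of the highest in mean FPKM, and the 10 genes most like Jchain over 17 and over 14 libraries. Eaf2, Pim2, Slamf7, Adgre1, Siglech, Otos, Eif2ak3 and Ighm fall outside that rule, and they and Csf1r, Gfi1 and Slc4a1 were chosen after their values were seen. Replicate numbers did not pair the samples: the correlation of same-numbered libraries' deviations lay between -0.221 and 0.0832.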

Additional observations from a re-analysis of the deposited data

How the results depend on the processing

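The number of the 10 plasma cell genes with an adjusted p under 0.05 (limma) in the comparison of NE with control, 1 as reported, was 0 without the filter on low values, 2 after rescaling by the median ratio, 3 after quantile normalization, 4 with array weights, 6 with all 17 libraries in 1 model and 0 with the replicate number as a block, where 0 genes of the whole table passed. The genes of the whole table called higher, 338 as reported, changed with it, to 201, 728, 956, 2288 and 1325 in that order. When single libraries were dropped it lay between 0 (control 2, control 3, NE 1, NE 3 or NE 4) and 3 (control 1), with 135 of 15431 genes called higher without control 2 and 1229 of 15486 without control 1, and without NE 5 the 1 gene was Tnfrsf17 in place of Irf4. For brimonidine with control, 1 as reported, it was 2 after rescaling by the median ratio or by quantiles, 4 with array weights (Sdc1 among them, as lower), 0 with all 17 libraries in 1 model, 0 with the replicate block (553 genes of the whole table as reported, then 1051, 1423, 2981, 1609 and 3), and 1 to 5 (control 1, where 1781 genes of the whole table were higher) with single libraries dropped. In that comparison 3935 genes of the whole table were called lower with array weights. For brimonidine with NE the number of the 10 genes was 0 under every alternative run, the block included. Fitted as fragments with voom, an alternative chosen after seeing the data, the counts were 1 for NE with control, 0 for brimonidine with NE and 1 for brimonidine with control, with 280 and 489 of 14585 genes called higher in the comparisons with control.

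Exact permutation tests passed 3, 1 and 2 of the 10 genes in those 3 comparisons, in the same order. Of all genes 5.87% were higher, 2.1% lower and 8.39% higher by the same tests. With single libraries dropped the counts lay between 0 and 6, 1 and 5, and 0 and 4, and 7 libraries against 2 controls cannot reach a p under 0.05. The last count was 4 after quantile normalization. Relative to Ptprc, 1 gene passed for brimonidine with NE, and between 0 and 5 with single libraries dropped, and 2 for brimonidine with control, between 0 and 2. With no pseudocount, chosen after seeing the data, these 2 counts were 1 and 2. Of the other gene lists 13 genes passed the adjusted threshold for NE with control and 7 without control 2.

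Some log2 fold changes changed sign. With array weights that of Sdc1 for NE with control was -0.19, that of Sdc1 for brimonidine with control was -0.59 (limma adjusted p = 0.00401), and for brimonidine with control those of Xbp1 and Fkbp11 were -0.068 and -0.13. With single libraries dropped that of Fkbp11 lay between -0.15 (control 2) and 0.69. Sdc1 for brimonidine with control, -0.0019 as reported, was 0.0049 with a pseudocount of 0.1, 0.0035 with equal totals, 0.095 by the median ratio, 0.066 by quantiles, 0.12 with the block, 0.00070 with voom, and between -0.35 and 0.32 with single libraries dropped. The median ratio moved the median of all genes for NE with control from -0.044 to 0.058, and the genes at an unadjusted p under 0.05 from 1695 higher and 3557 lower to 2917 and 2631, and quantile normalization moved them to 3074 and 2566. Over the alternatives the log2 fold change for NE with control lay between 0.26 and 0.88 for Tnfrsf17 and between -0.19 and 0.68 for Sdc1. The cause of these differences was not tested.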
